A study of Homo sapiens with 12 samples.

Results

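Lipid droplets are stores of triglyceride and sterol ester that cells build and empty as their supply of fatty acid changes. The data on 9 genes of this store were examined in MDA-MB-231 cells. They are HILPDA, PLIN2, PLIN3, PLIN4, FABP5, DGAT1, DGAT2, PNPLA2 and LPIN1. The genes were chosen by symbol for what their proteins do, with earlier results of these data known. Each symbol matched 1 of the 60664 genes in the count table. MDA-MB-231 is an established human line from a triple-negative breast cancer. Messenger RNA was sequenced in 12 libraries, 4 from each of 3 groups. WT normoxia cells had the wildtype genotype and no treatment. WT hypoxia cells had the wildtype genotype and spent 24 hr in a chamber with 1% O2. CCAR2 KO cells (CCAR2-/-) were kept in normoxia. CCAR2 encodes DBC1, a nuclear protein that the study followed under hypoxic stress. The KO was made with a lentiviral CRISPR vector. Whether the KO cells were 1 clone or a pool is not given in the sources used here. The study's methods call the replicates biological but name 3 or 2 of them. Whether the 4 libraries of a group came from separate cultures is not stated, so p-values measure only the spread between these libraries. No KO cells in hypoxia were part of the series. The WT normoxia libraries were the controls of both hypoxia and KO.

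A lipid droplet is a core of neutral lipid inside a single layer of phospholipid, coated with proteins of the perilipin family. Triglyceride is made when fatty acids are joined stepwise to a glycerol backbone, and it is broken down on the droplet surface by lipases, of which the first in line is ATGL. Cancer cells short of oxygen are known to take up fatty acids and to keep them in droplets, and the ATGL inhibitor encoded by HILPDA is a textbook target of the hypoxia-inducible factors.

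The estimated counts per library summed to between 153904088 and 213743693 in WT normoxia, between 76384973 and 195621872 in WT hypoxia and between 68599412 and 152328450 in KO cells. CCAR2 had a level of 146 ± 3.11 CPM (counts scaled to library size, SD, n = 4) in WT normoxia, 149 ± 4.95 CPM in WT hypoxia and 57.8 ± 2.81 CPM in KO cells, so transcript remained in the libraries labelled KO. The study's methods state that its knockouts were checked by sequencing the edited site, and the protein loss by Western blot. CA9, a hypoxia target, was at a mean of 0.0649, 4.90 and 0.112 CPM in the same order. The 4 markers of the line, VIM, CD44, AXL and ZEB1, summed to between 6270 and 7030 CPM over all libraries, and ESR1, PGR and CDH1 were at or under 0.47 CPM. Most of that sum was VIM. ZEB1 had means of 62.6, 43.9 and 65.4 CPM in WT normoxia, WT hypoxia and KO. CLDN3, also listed as low, had means of 0.968, 1.78 and 1.22 CPM. By the edgeR test described below, ZEB1 was called lower (log2 -0.52, adjusted p-value 0.00122) and CLDN3 higher (0.87, 0.00202) in hypoxia. ERBB2 and EPCAM, which were listed as low in this line, were at group means of 91.0 to 100 and 12.7 to 17.5 CPM. WT hypoxia replicate 2 was the library farthest from the others of its group, with 56.2 to 87.2 chi-square units per degree of freedom against them, where all other pairs of replicates lay between 13 and 52.2. In these bulk libraries of a single line, fewer cells that express a gene and less RNA per cell cannot be told apart.

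Hypoxia acts on many of its target genes through a factor that binds DNA at the core letters ACGTG or GCGTG. To show what such letters look like in front of the droplet genes, the 250 bases before a RefSeq start (GRCh38.p14) are printed for PLIN2, PLIN3 and PNPLA2. The first start listed for a gene was used. Of the 9 genes, 5 had an entry in the promoter table, the other 2 being PLIN4 and LPIN1. HILPDA, FABP5, DGAT1 and DGAT2 had none. Capitals mark ACGTG and GCGTG on either strand, so that CACGT and CACGC are the same letters read on the other strand, and CACGTG is 2 overlapping copies of ACGTG.
PLIN2, chr9:19127493-19127742, minus strand: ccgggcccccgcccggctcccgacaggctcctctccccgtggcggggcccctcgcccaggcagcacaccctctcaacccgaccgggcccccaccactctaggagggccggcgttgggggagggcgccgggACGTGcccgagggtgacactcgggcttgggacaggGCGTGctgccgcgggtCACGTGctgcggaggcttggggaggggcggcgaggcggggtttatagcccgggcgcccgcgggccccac
PLIN3, chr19:4867668-4867917, minus strand: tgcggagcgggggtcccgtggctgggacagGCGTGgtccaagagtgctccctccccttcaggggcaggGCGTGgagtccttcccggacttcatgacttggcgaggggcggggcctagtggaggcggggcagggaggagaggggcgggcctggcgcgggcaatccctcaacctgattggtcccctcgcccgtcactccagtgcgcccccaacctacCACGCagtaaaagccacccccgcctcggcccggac
PNPLA2, chr11:818664-818913, plus strand: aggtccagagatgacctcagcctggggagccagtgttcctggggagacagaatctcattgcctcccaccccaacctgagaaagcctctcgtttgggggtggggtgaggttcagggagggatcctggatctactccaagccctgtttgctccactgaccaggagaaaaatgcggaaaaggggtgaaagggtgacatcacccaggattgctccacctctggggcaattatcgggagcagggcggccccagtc
The PLIN2 window held ACGTG 120 bases before the start, the overlapping pair 69 and 68 bases before it, and GCGTG 85 bases before it. The PLIN3 window held GCGTG at 220, 182 and 35 bases before the start, the last on the opposite strand. The windows of PNPLA2, PLIN4 and LPIN1 held neither motif. Those of PLIN2 and LPIN1 (chr2:11746382-11746631) lie inside the gene positions given below, so any start farther upstream was not covered. Of 35116 RefSeq windows of this length, 18.5% held ACGTG, 32.2% held GCGTG and 43.2% held either, so 2 of 5 is a share close to that of all promoters. A match of letters is a description and not a binding site.

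The 9 genes covered a wide range of transcript levels. In WT normoxia, and in CPM per kilobase of exon, the order was PLIN3 at 92.6, FABP5 at 39.7, PNPLA2 at 31.2, PLIN2 at 14.5, DGAT1 at 5.96, HILPDA at 5.16, LPIN1 at 4.42, DGAT2 at 1.43 and PLIN4 at 0.136. Among 22118 genes this put PLIN3 at percentile 98, DGAT2 at percentile 50.4 and PLIN4 at percentile 21.3. Each gene stood above the next in 4 of 4 libraries. The ranges of DGAT1 and HILPDA overlapped, with 5.36 CPM per kilobase in the lowest library for DGAT1 and 5.4 in the highest for HILPDA, and no other pair of neighbours overlapped. Divided by the longest transcript in place of all exons, LPIN1 at 9.21 and HILPDA at 7.8 stood above DGAT1 at 6.63 CPM per kilobase, so the order within these 3 genes depends on the transcript that the cells use. Among the 3 perilipins described here, ubiquitous PLIN3 had the most transcript per length, and PLIN4, known from adipocytes and muscle, had the least. The perilipins PLIN1 and PLIN5 were lower still in WT normoxia, at 0.0321 and 0.0376 CPM per kilobase.

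**Figure D1:**
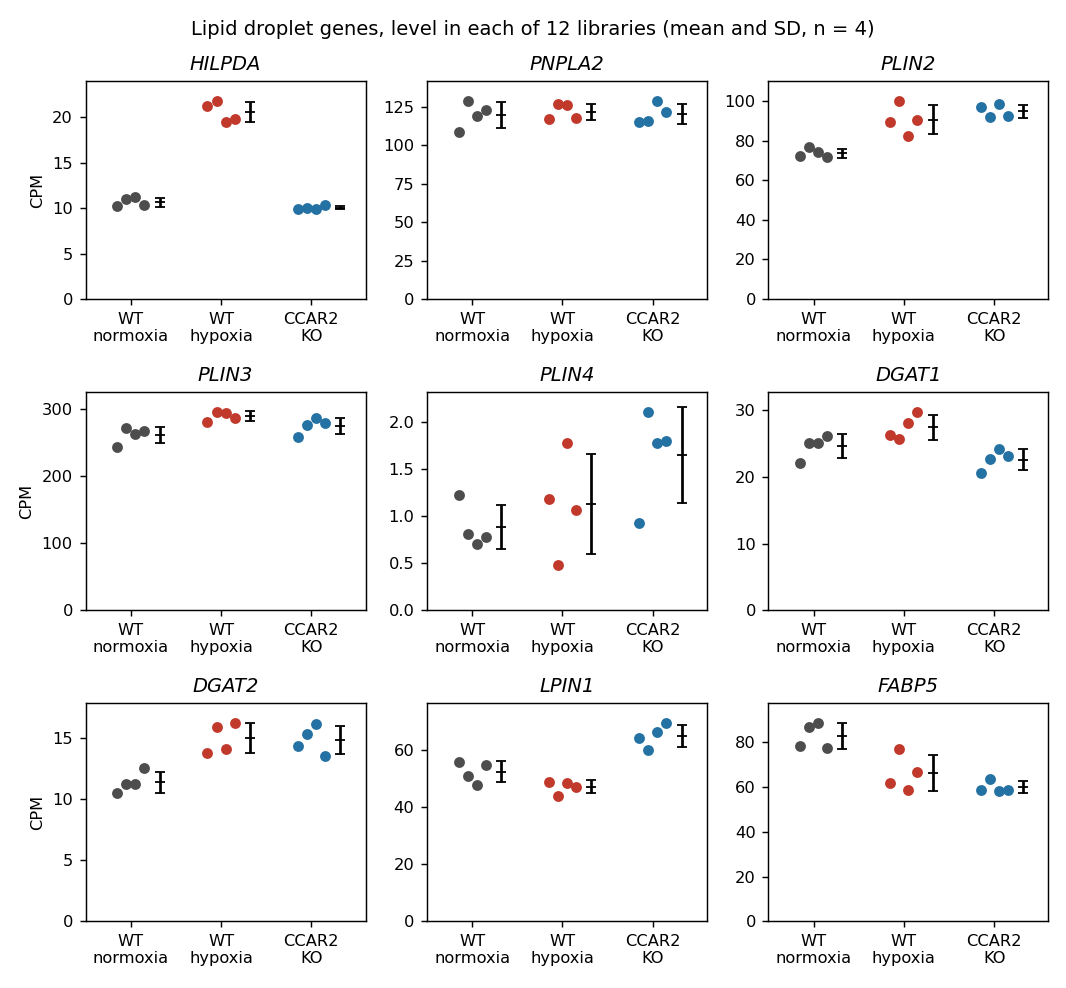
Level of the 9 lipid droplet genes in CPM (y axis, from 0) in each of the 12 libraries (points) by group, with the mean and SD of the 4 libraries as bar and whiskers. HILPDA stood at 19.5 to 21.8 CPM in WT hypoxia and at 11.2 CPM or under in all other libraries, and FABP5 was lower in every WT hypoxia and KO library than in WT normoxia.

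Which droplet genes responded to 24 hr of hypoxia was the question of the first comparison. A gene was called higher or lower where the quasi-likelihood test of edgeR, adjusted by Benjamini-Hochberg, gave an adjusted p-value under 0.05 and the log2 fold change was 0.5 or more in size. By this rule HILPDA rose, no droplet gene fell and 8 of 9 were not called. Of all 21776 genes tested, 1582 were called (7.26%), 1270 of them higher (5.83%) and 312 lower (1.43%). By the adjusted p-value alone HILPDA, PLIN2, DGAT2 and FABP5 passed, 4 of 9 against 23.5% of all genes tested. The groups did not overlap in 5 of 9 genes, against 26.4% of all genes. Since the 9 genes were chosen with earlier results known, such shares, here and below, are descriptions and not tests. The median log2 fold change of the 9 genes was 0.15, beside 0.01 for all genes tested.

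In the KO against WT normoxia, PLIN4 was called higher and no droplet gene was called lower, while 2070 of 21410 genes tested were called in all (9.67%), 1441 of them higher (6.73%) and 629 lower (2.94%). PLIN2, FABP5, DGAT2, LPIN1 and PLIN4 passed the adjusted p-value, 5 of 9 against 30.4% of all genes. The groups did not overlap in 4 of 9 genes, against 30.8% of all genes. The median log2 fold change was 0.07, beside 0.01 for all genes. Both comparisons use the same 4 control libraries, so their values for a gene are given side by side below.

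**Figure D2:**
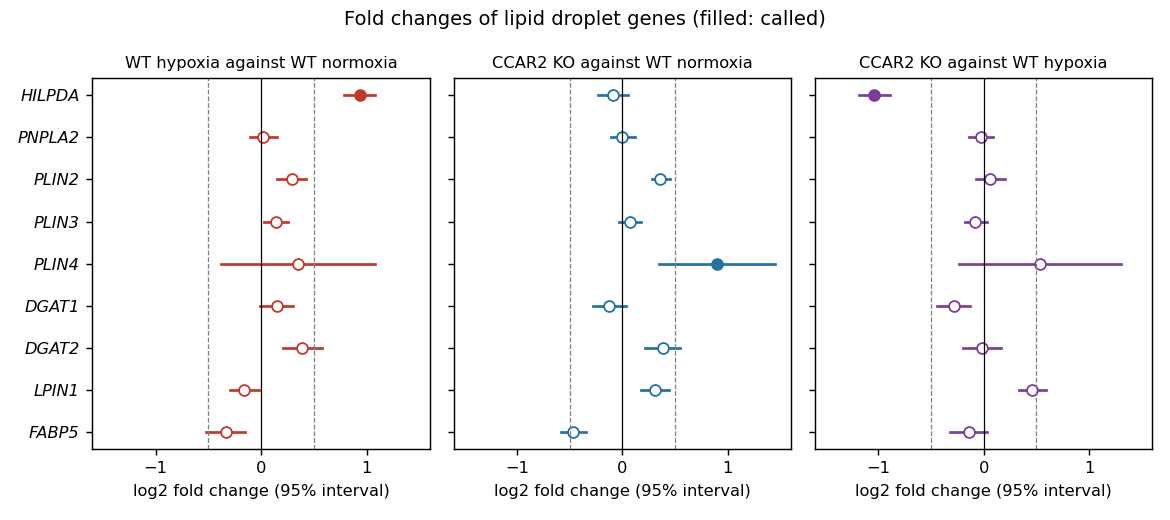
Log2 fold change (x axis) of each lipid droplet gene in 3 comparisons, with its 95% interval from edgeR's fit of 4 libraries against 4. Filled points passed both the adjusted p-value of 0.05 and the fold criterion of 0.5 (dashed lines), which held for HILPDA in both comparisons with WT hypoxia and for PLIN4 in the KO.

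HILPDA (ENSG00000135245, chromosome 7, 128455849 to 128458418 on the plus strand of GRCh38) encodes a small droplet protein that inhibits ATGL and so slows the breakdown of triglyceride. Its level was 10.2, 11, 11.2 and 10.3 CPM in WT normoxia replicates 1 to 4, 21.2, 21.8, 19.5 and 19.8 CPM in WT hypoxia, and 9.93, 10, 9.94 and 10.3 CPM in the KO. All hypoxia libraries stood apart above the normoxia libraries, and the KO libraries lay at or just under the lower end of WT normoxia. The log2 fold change in hypoxia was 0.94 ± 0.07 (SE; 95% interval 0.79 to 1.08), a 1.91-fold rise, with an adjusted p-value of 9.76e-06 by edgeR's quasi-likelihood test (Benjamini-Hochberg adjusted). In the KO the log2 fold change was -0.09 (interval -0.23 to 0.05, adjusted p-value 0.343), so that a gain of the size seen in hypoxia lies outside the KO's interval. Processed transcripts annotated on the same strand across HILPDA held at most 2.99% and 1.88% of its count in any library.

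The lipase that HILPDA inhibits, ATGL, is encoded by PNPLA2 (ENSG00000177666, chromosome 11, 818902 to 825573, plus strand). PNPLA2 ranged from 109 to 129 CPM in WT normoxia, from 117 to 127 CPM in WT hypoxia and from 115 to 129 CPM in the KO. The 3 ranges lay almost on top of each other. Hypoxia gave a log2 fold change of 0.02 (interval -0.11 to 0.15, adjusted p-value 0.864) and the KO one of 0 (interval -0.11 to 0.12, adjusted p-value 0.963). These intervals leave room only for small changes, well under the 0.5 that the rule asks for.

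The perilipins coat the droplet and control the access of lipases. PLIN2 (ENSG00000147872, chromosome 9, 19108375 to 19149290, minus strand) is the main coat protein of droplets outside fat tissue, and its protein is known to be degraded when not bound to a droplet. It stood at 72.1, 76.6, 74.1 and 71.6 CPM in WT normoxia replicates 1 to 4, at 89.3, 100, 82.1 and 90.4 CPM in WT hypoxia, and at 96.7, 91.9, 98.4 and 92.2 CPM in the KO. Every hypoxia and every KO library was above every WT normoxia library, and the hypoxia and KO libraries overlapped with each other. Its log2 fold change was 0.29 ± 0.06 (SE) in hypoxia (1.22-fold, adjusted p-value 0.00685) and 0.36 ± 0.04 in the KO (1.29-fold, adjusted p-value 2.27e-05). Both passed the adjusted p-value and stayed below the fold criterion.

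PLIN3 (ENSG00000105355, chromosome 19, 4838341 to 4867768, minus strand) encodes a perilipin that is found in the cytosol and moves to newly formed droplets. It ranged from 243 to 271 CPM in WT normoxia, from 280 to 295 CPM in WT hypoxia and from 258 to 286 CPM in the KO. The hypoxia libraries lay above the normoxia libraries with no overlap, but the log2 fold change was 0.14 (interval 0.03 to 0.25) and the adjusted p-value of 0.0682 missed the threshold. It was 0.0251 by DESeq2 and 0.0484 with a replicate block in edgeR, still far below the fold criterion. In the KO it was 0.07 (interval -0.03 to 0.18, adjusted p-value 0.265).

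PLIN4 (ENSG00000167676, chromosome 19, 4502180 to 4518465, minus strand) is the least abundant of the 9 genes, with 39 to 292 counts per library. Its level was 1.23, 0.814, 0.709 and 0.779 CPM in WT normoxia replicates 1 to 4, 1.18, 0.478, 1.78 and 1.07 CPM in WT hypoxia, and 0.926, 2.11, 1.78 and 1.8 CPM in the KO. KO replicates 2, 3 and 4 stood above all WT normoxia libraries, while KO replicate 1 lay below WT normoxia replicate 1, so the groups overlapped. The log2 fold change in the KO was 0.9 ± 0.25 (SE; interval 0.35 to 1.45), with an adjusted p-value of 0.0177 by edgeR's quasi-likelihood test (Benjamini-Hochberg adjusted). This call was lost in edgeR when any of 4 single libraries was left out, and also when all 12 libraries were fitted together (adjusted p-value 0.0583). Without KO replicate 2 the log2 fold change was 0.76 and the adjusted p-value 0.0548, without KO replicate 4 they were 0.85 and 0.0505, without WT normoxia replicate 2 they were 0.85 and 0.0514, and without WT normoxia replicate 3 they were 0.8 and 0.0589. In hypoxia the log2 fold change was 0.35 (interval -0.38 to 1.08, adjusted p-value 0.502).

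The spread of PLIN4 between libraries of a group was the widest of the 9 genes, with a coefficient of variation of 26.6% in WT normoxia, 47.3% in WT hypoxia and 30.7% in the KO, where the other 8 genes lay between 1.65% and 12.2%. PLIN4 overlaps HDGFL2 on the opposite strand by 32 bases, and HDGFL2 had 49.5 to 262 times the count of PLIN4. Whether the counting used strand is not given in the sources used here, so reads of HDGFL2 within PLIN4 cannot be told apart from its own. HDGFL2 had a log2 fold change of -0.1 in the KO (adjusted p-value 0.205). PLIN4 is a gene of adipocytes. The 7 adipocyte markers ADIPOQ, LEP, PLIN1, CIDEA, CIDEC, FABP4 and LPL summed to 3.79 to 4.93 CPM in WT normoxia, 4.15 to 5.43 CPM in WT hypoxia and 5.74 to 6.88 CPM in the KO. Most of each sum was LPL, ADIPOQ was at 0 in all 12 libraries, and LEP was at 0 in WT hypoxia and in the KO. The endothelial marker PECAM1 was at 1.89 to 3.07 CPM in WT normoxia and 5.05 to 5.76 CPM in the KO. The series names only cultured MDA-MB-231 cells, and a link between these marker transcripts and the PLIN4 value was not tested.

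The last step of triglyceride synthesis, the transfer of the last fatty acid to diacylglycerol, is carried out by 2 unrelated enzymes, DGAT1 and DGAT2. DGAT2 (ENSG00000062282, chromosome 11, 75759512 to 75801535, plus strand) works at the endoplasmic reticulum and on the droplet itself. It stood at 10.5, 11.2, 11.2 and 12.5 CPM in WT normoxia replicates 1 to 4, at 13.8, 15.9, 14.1 and 16.2 CPM in WT hypoxia, and at 14.3, 15.3, 16.1 and 13.5 CPM in the KO. All 8 hypoxia and KO libraries were above the highest WT normoxia library. The log2 fold change was 0.39 ± 0.08 (SE) in hypoxia (1.31-fold, adjusted p-value 0.00586) and 0.38 ± 0.08 in the KO (1.3-fold, adjusted p-value 0.00259), in both below the fold criterion.

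DGAT1 (ENSG00000185000, chromosome 8, 144314584 to 144326910, minus strand) is the enzyme of the endoplasmic reticulum that esterifies fatty acids from outside or from the turnover of other lipids. Its levels were 22.1, 25.1, 25.1 and 26.1 CPM in WT normoxia replicates 1 to 4, 26.3, 25.6, 28 and 29.7 CPM in WT hypoxia, and 20.5, 22.6, 24.1 and 23.1 CPM in the KO. WT normoxia overlapped with both other groups, which did not overlap with each other. Against WT normoxia the log2 fold change was 0.15 in hypoxia (interval -0.01 to 0.3, adjusted p-value 0.156) and -0.13 in the KO (interval -0.28 to 0.03, adjusted p-value 0.207). DGAT1 overlaps HSF1 on the opposite strand by 139 bases, and HSF1 had 3.9 to 4.64 times its count, with log2 fold changes of 0.07 in hypoxia and -0.13 in the KO.

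LPIN1 (ENSG00000134324, chromosome 2, 11677595 to 11827409, plus strand) encodes lipin-1, the phosphatase that makes the diacylglycerol used by both enzymes. It stood at 56, 51.1, 47.8 and 54.8 CPM in WT normoxia replicates 1 to 4, at 48.9, 43.9, 48.6 and 47.1 CPM in WT hypoxia, and at 64.2, 60.2, 66.3 and 69.5 CPM in the KO. The KO libraries were above all 8 WT libraries, and the hypoxia libraries lay toward the low end of WT normoxia with 2 of them inside its range. In the KO the log2 fold change was 0.31 ± 0.06 (SE; 1.24-fold, adjusted p-value 0.00155), below the fold criterion. In hypoxia it was -0.16 (interval -0.3 to -0.02, adjusted p-value 0.0878), and without WT normoxia replicate 3 it was -0.21 with an adjusted p-value of 0.0473.

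FABP5 (ENSG00000164687, chromosome 8, 81280363 to 81284777, plus strand) encodes a protein that binds fatty acids in the cytosol and carries them between membranes, droplets and the nucleus. It was at 78.1, 86.6, 88.4 and 77.1 CPM in WT normoxia replicates 1 to 4, at 61.7, 76.9, 58.5 and 66.8 CPM in WT hypoxia, and at 58.8, 63.7, 58.2 and 58.6 CPM in the KO. WT normoxia was highest with no overlap, although the highest hypoxia library, replicate 2, came within a fraction of 1 CPM of the lowest normoxia library. The log2 fold change was -0.33 ± 0.08 (SE) in hypoxia (adjusted p-value 0.0155) and -0.47 ± 0.05 in the KO (adjusted p-value 4.55e-05), the latter just short of the fold criterion. Without WT normoxia replicate 3 the adjusted p-value in hypoxia was 0.0509.

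FABP5 has many processed pseudogenes, and reads can be split between them. Its most abundant copy, FABP5P7 on chromosome 11 (59781318 to 59781722), was listed at a mean of 9.87 CPM in WT normoxia, 6.77 CPM in WT hypoxia and 8.02 CPM in the KO, and was called lower in hypoxia with a log2 fold change of -0.55 (adjusted p-value 0.00259). Since near-identical copies share reads, the value of FABP5P7 is uncertain. With the counts of all FABP5P genes added to FABP5, an alternative chosen after seeing the data, the log2 fold change was -0.35 in hypoxia (adjusted p-value 0.00925) and -0.44 in the KO (adjusted p-value 6.01e-05).

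Ratios of 2 genes within a library do not depend on how libraries are scaled. Raw counts were divided, so only the change of a ratio between groups can be read, not its level. The ratio of HILPDA, the inhibitor, to PNPLA2, the lipase, was 0.0835 to 0.0942 in WT normoxia, 0.154 to 0.181 in WT hypoxia and 0.0772 to 0.0865 in the KO. On the log2 scale hypoxia was 0.91 higher than normoxia with no overlap (two-sided exact permutation test, p = 0.0286, adjusted p = 0.0514 over 9 ratio tests). The KO differed from WT normoxia by -0.09 (exact permutation p = 0.257).

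The ratio of DGAT1 to DGAT2 was 2.1 to 2.25 in WT normoxia, 1.61 to 1.98 in WT hypoxia and 1.44 to 1.71 in the KO. WT normoxia stood above both other groups with no overlap, by 0.25 over hypoxia on the log2 scale (hypoxia minus normoxia -0.25) and by 0.51 over the KO (KO minus normoxia -0.51), each with an exact permutation p of 0.0286 and an adjusted p of 0.0514. The groups were thus separate in both conditions, while the adjusted threshold was missed. The ratio of PLIN2 to PLIN3 was 0.269 to 0.297 in WT normoxia, 0.279 to 0.34 in WT hypoxia and 0.331 to 0.375 in the KO, with a log2 difference from WT normoxia of 0.29 in the KO (no overlap, exact permutation p = 0.0286, adjusted p = 0.0514) and of 0.15 in hypoxia (overlap, p = 0.114). With 4 libraries against 4, 0.0286 is the smallest p that the test can give, and with 9 tests no ratio passed 0.05 after adjustment.

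**Figure D3:**
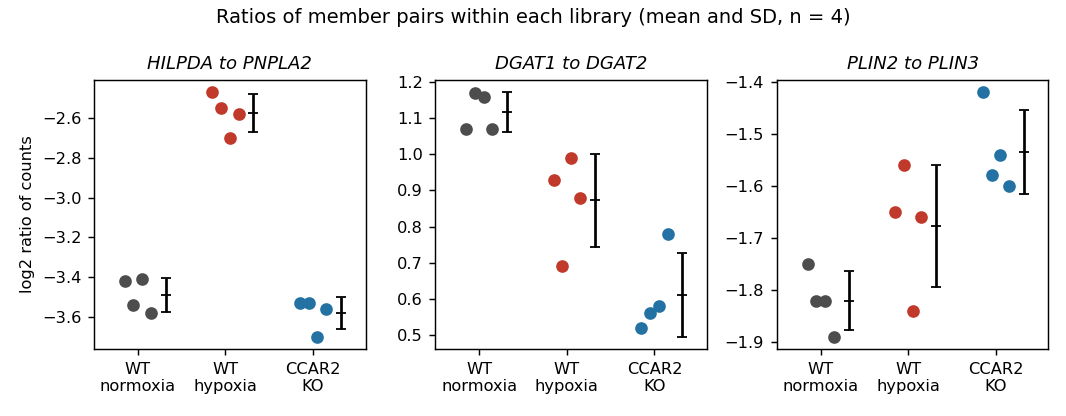
Log2 ratio of the counts of 2 genes within each library (y axis) for HILPDA to PNPLA2, DGAT1 to DGAT2 and PLIN2 to PLIN3, with points for the 12 libraries and the mean and SD of each group. The HILPDA to PNPLA2 ratio had a mean of -2.57 in WT hypoxia against -3.49 in WT normoxia and -3.58 in the KO, while the mean DGAT1 to DGAT2 ratio was 1.12, 0.87 and 0.61 in WT normoxia, WT hypoxia and KO.

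To ask where the response to hypoxia and the effect of the KO differed, KO cells were compared with WT hypoxia cells directly. HILPDA was called lower in the KO than in hypoxia, at a log2 fold change of -1.04 ± 0.06 (SE; interval -1.18 to -0.89, edgeR's quasi-likelihood test (Benjamini-Hochberg adjusted), adjusted p-value 4.7e-07), and the other 8 droplet genes were not called. In all, 3165 of 21158 genes were called in this comparison (15%), 1498 of them higher (7.08%) and 1667 lower (7.88%). HILPDA, LPIN1 and DGAT1 passed the adjusted p-value, 3 of 9 against 34.9% of all genes, and these 3 were also the ones with no overlap, against 35.9% of all genes. LPIN1 was 1.38-fold higher in the KO (log2 0.46 ± 0.06, adjusted p-value 9.9e-05), just below the fold criterion. DGAT1 was lower by a log2 fold change of -0.28 ± 0.07 (adjusted p-value 0.00759), and the log2 fold change of the overlapping HSF1 was -0.21 (adjusted p-value 0.00526).

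For the genes that passed the adjusted p-value in the same direction in hypoxia and KO, the direct difference did not pass it. It was 0.06 for PLIN2 (interval -0.07 to 0.2, adjusted p-value 0.48), -0.02 for DGAT2 (interval -0.2 to 0.16, adjusted p-value 0.862) and -0.14 for FABP5 (interval -0.32 to 0.03, adjusted p-value 0.186). These p-values do not show that the groups were alike. The intervals end short of 0.5, but so did the changes against WT normoxia, so this bound cannot show like effects. The FABP5 interval reached -0.32, close to its whole change of -0.33 in hypoxia. The intervals of PLIN2 and DGAT2 ended short of their changes in hypoxia (0.29 and 0.39) and in the KO (0.36 and 0.38). These genes were picked for a shared direction against the same WT normoxia libraries, which favours a small direct difference. PLIN4, with its wide spread, had an interval of -0.23 to 1.3.

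The genes whose levels followed HILPDA most closely were ranked by Pearson's r of log2 CPM over the 12 libraries among 18288 genes. They were ANKRD37 (r = 0.994), PGK1 (0.994), BNIP3 (0.992), FAM162A (0.99) and PGAM1 (0.989). PGK1 and PGAM1 are enzymes of glycolysis and BNIP3 is a mitochondrial receptor for autophagy. The mean of BNIP3 was 118 CPM in WT normoxia, 342 CPM in WT hypoxia and 97.1 CPM in the KO, and that of ANKRD37 was 3.85, 15.9 and 3.59 CPM. In each of the 5 genes the hypoxia mean was the highest and the KO mean the lowest. For PLIN2 the closest genes were APOBEC3C (r = 0.969), CCRL2 (0.958), ACAA2 (0.958), ID1 (0.95) and MALL (0.946). Among them ACAA2, an enzyme of fatty acid oxidation in mitochondria, was at 23.8, 28.4 and 29.6 CPM, and ID1 was at 143, 181 and 182 CPM in WT normoxia, WT hypoxia and KO. Among the droplet genes themselves the highest r was that of PLIN2 with DGAT2 (0.869) and the lowest that of HILPDA with LPIN1 (-0.763), and HILPDA and PLIN2 had an r of 0.27. All these values are descriptions over libraries in 3 groups, which share the difference between those groups.

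The rest of the droplet pathway was counted by list. The shares of all genes called higher and lower, beside which these counts stand, were 5.83% and 1.43% in hypoxia and 6.73% and 2.94% in the KO. Of the triglyceride synthesis genes, 11 of 14 were tested in both comparisons with WT normoxia. Only LPIN3, a relative of LPIN1, was called higher in hypoxia, from 18.4 to 28 CPM (log2 0.59, adjusted p-value 0.000333). In the KO 2 genes rose, namely LPIN2, another lipin, from 169 to 303 CPM (log2 0.84, adjusted p-value 1.71e-08) and GPAT3, which starts the chain by acylating glycerol phosphate, from 43.1 to 68.9 CPM (log2 0.68, adjusted p-value 3.2e-06). None of this list was called lower, and its median log2 fold change was 0.05 in hypoxia and 0.15 in the KO. By the adjusted p-value alone 4 of 11 passed in hypoxia (23.5% of all genes) and 8 of 11 in the KO (30.4%). In hypoxia LPIN3 was higher, while GPAT3 (log2 -0.49, adjusted p-value 0.000922), LPIN2 (-0.24, 0.018) and GPAM (-0.28, 0.0422) were lower. These lower genes were named after their values had been seen. LPIN3 was also higher in the KO by the adjusted p-value, short of the fold criterion (log2 0.4, adjusted p-value 0.00234, no overlap), and KO and hypoxia differed for it by -0.2 (adjusted p-value 0.119).

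All 9 genes of lipolysis and its regulators were tested. None was called in hypoxia, with a median of -0.04. In the KO, PNPLA3, a relative of ATGL, was called higher at low level, from 0.639 to 1.32 CPM (log2 1.05, adjusted p-value 0.00253), and PNPLA4 was called lower, from 6.29 to 4.45 CPM (log2 -0.5, adjusted p-value 0.00112), with a median of 0.16. ABHD5, the activator of ATGL, and G0S2, another ATGL inhibitor, were not called in either comparison. For ABHD5 the log2 fold change was -0.04 in hypoxia and -0.19 in the KO (adjusted p-value 0.036 in the KO). For G0S2 it was 0.01 and 0.22 (adjusted p-value 0.014 in the KO). In the KO both passed the adjusted p-value with no overlap, short of the fold criterion. Of these 3 regulators of ATGL, HILPDA alone was called in hypoxia. By the adjusted p-value alone 2 of 9 genes of this list passed in hypoxia (23.5% of all genes) and 7 of 9 in the KO (30.4%). In the KO PNPLA3, G0S2 and LIPA were higher, and PNPLA4, ABHD5, LIPE and MGLL were lower. The genes not called were named here after their values had been seen.

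Of 16 genes of the droplet coat and its biogenesis, 12 were tested in hypoxia and 13 in the KO, and none was called in either, with medians of -0.19 and 0.06. The gene added in the KO was CIDEC, with 0 to 14 counts per library in WT normoxia and 10 to 21 in the KO. Its presence among the genes tested rests on the group where it was high. By the adjusted p-value alone 4 of 12 passed in hypoxia (23.5% of all genes) and 2 of 13 in the KO (30.4%). Those in hypoxia were all lower, namely SPAST (log2 -0.45, adjusted p-value 0.00492), RAB18 (-0.34, 0.0134), ACSL3 (-0.28, 0.00782) and HSD17B11 (-0.27, 0.0361). They were named after their values had been seen. The list of fatty acid uptake, binding and activation had the most calls. In hypoxia 4 of 13 tested genes were called higher (5.83% of all genes) and none lower (1.43% of all genes), with a median of 0.43, among them VLDLR, a receptor for triglyceride-rich lipoprotein, from 16 to 27.5 CPM (log2 0.77, adjusted p-value 8.35e-05), SLC27A3 from 0.784 to 1.4 CPM (log2 0.83, adjusted p-value 0.0061) and FABP6 from 0.195 to 0.495 CPM (log2 1.33, adjusted p-value 0.0207). The genes named are of moderate or low level. By the adjusted p-value alone 5 of the list were higher and 4 lower in hypoxia, and the 4 lower ones are abundant genes of fatty acid activation and transport whose groups did not overlap. Their log2 fold changes were -0.36 for ACSL4 (adjusted p-value 0.00163), -0.28 for ACSL5 (0.00164), -0.23 for ACSL1 (0.0176) and -0.17 for SLC27A4 (0.0168), all short of the fold criterion.

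In the KO 5 of 14 genes of this list were called higher (6.73% of all genes) and none lower (2.94% of all genes), with a median of 0.41. Without FABP4 it was 4 of 13 with a median of 0.37. The most abundant of those called was ACSL5, which joins fatty acids to coenzyme A, from 101 to 161 CPM (log2 0.67, adjusted p-value 4.15e-08, no overlap). FABP4, the fatty acid-binding protein of adipocytes, had 7 to 15 counts per library in WT normoxia and 34 to 125 in the KO (log2 3.35, adjusted p-value 1.16e-05). It passed the filter on low counts in the comparisons with the KO and not in hypoxia against normoxia, so its presence among the genes tested rests on the group where it was high. SLC27A2 rose from 0.722 to 1.25 CPM (log2 0.80, adjusted p-value 0.00747) and FABP6 to 0.391 CPM (log2 0.99, adjusted p-value 0.0334), both at low level. Passing the adjusted p-value in the KO were 9 of 14 (30.4% of all genes). Of these, SLC27A1 (log2 0.45, adjusted p-value 0.00205), LPL (0.37, 0.0243) and VLDLR (0.35, 0.00124) were higher, short of the fold criterion. ACSL4 was lower (-0.2, 0.00604), also short of it. ACSL1, ACSL4, ACSL5, SLC27A4, SLC27A1 and LPL were named after their values had been seen.

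**Figure D4:**
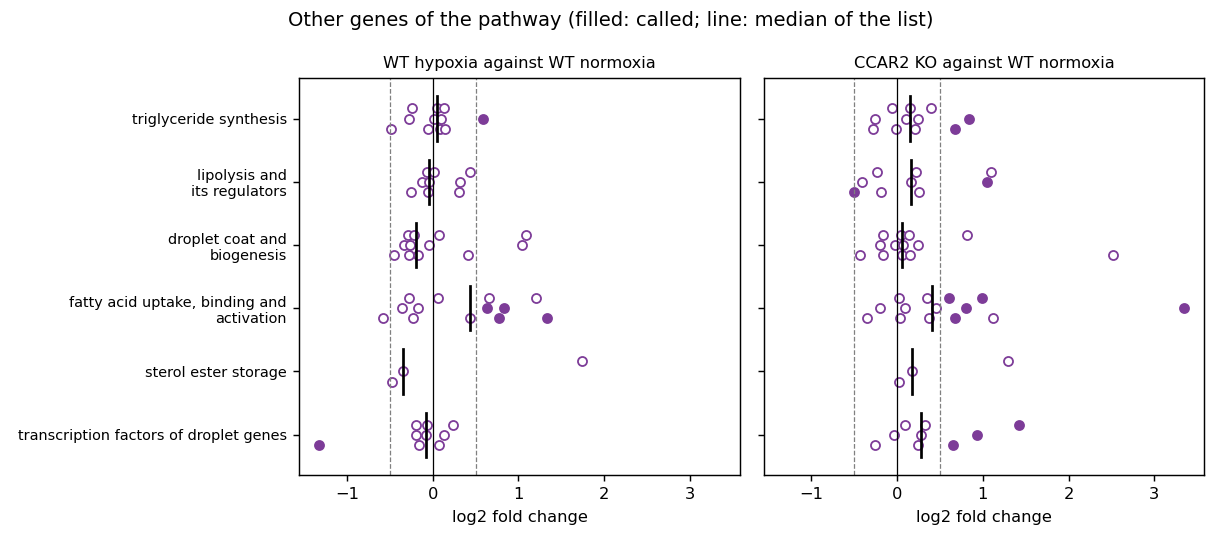
Log2 fold change against WT normoxia (x axis) of the other genes of the droplet pathway, 1 point per gene tested, in rows by list, for WT hypoxia and for CCAR2 KO. Filled points were called, dashed lines mark the fold criterion of 0.5 in either direction and the short line is the median of the list, which for fatty acid uptake, binding and activation was 0.43 in hypoxia and 0.41 in the KO.

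The 3 genes of sterol ester storage were not called in either comparison, with medians of -0.35 in hypoxia and 0.17 in the KO. By the adjusted p-value alone NCEH1 (log2 -0.48, adjusted p-value 0.000156) and SOAT1 (-0.35, 0.00158) were lower in hypoxia. In the KO only NCEH1 passed, and it was higher (0.17, 0.049). Of 9 transcription factors of droplet genes, HIF1A, the oxygen-regulated subunit of the hypoxia-inducible factor, was the only one called in hypoxia, where its transcript fell from a mean of 263 to 106 CPM (log2 -1.32, adjusted p-value 2.93e-07). In the KO 3 of 9 were called higher, with a median of 0.28. They were EPAS1, which encodes a related oxygen-regulated subunit, from 26.8 to 71.7 CPM (log2 1.42, adjusted p-value 8.15e-09), SREBF1, a regulator of lipid synthesis, from 108 to 205 CPM (log2 0.93, adjusted p-value 1.86e-07), and HIF1A to 412 CPM (log2 0.65, adjusted p-value 4.75e-07). The adjusted p-value alone was passed by 1 of 9 in hypoxia (23.5% of all genes) and 6 of 9 in the KO (30.4%). Besides those called, PPARG (log2 0.32, adjusted p-value 0.000276) and ARNT (0.28, 0.00366) were higher in the KO. PPARGC1B was lower there (-0.26, 0.0351). These genes were named after their values had been seen. The transcripts of both hypoxia-inducible subunits, HIF1A and EPAS1, were higher in KO cells. HILPDA had a log2 fold change of -0.09 there, and of 0.94 in hypoxia, where HIF1A transcript fell. These libraries hold no measure of the subunit proteins, and a link between the transcripts of the subunits and HILPDA was not tested.

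Between KO and hypoxia, 2 of 11 genes of triglyceride synthesis and 3 of 9 transcription factors were called higher and none of either list lower, 1 of 9 genes of lipolysis was called higher and 1 lower, and 3 of 14 genes of fatty acid uptake, binding and activation were called higher and 2 lower (2 and 2 of 13 without FABP4). Of all genes 7.08% were called higher and 7.88% lower in this comparison, by which 1 call in a list of 9 to 14 genes is near the background. GPAT3 (log2 1.16, adjusted p-value 4.5e-07) and LPIN2 (1.07, 2.6e-07) were higher in the KO than in hypoxia, as were EPAS1 (1.61, 1.56e-08), HIF1A (1.95, 3.34e-09) and SREBF1 (0.85, 1.64e-06). MGLL, the lipase of monoacylglycerol, was lower in the KO (log2 -0.57, adjusted p-value 7.83e-06). Of the coat and biogenesis genes SPAST was higher (log2 0.51, adjusted p-value 0.00118), and of the sterol ester genes NCEH1, a hydrolase of cholesteryl ester, was higher (log2 0.64, adjusted p-value 9.14e-06).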

How the data were processed

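RNA of 12 MDA-MB-231 libraries in 3 groups of 4 was sequenced. According to the study's methods, cleaned reads were aligned with Hisat2 and quantified with StringTie, whereas the submitters' processing notes name HISAT2, SAMtools and featureCounts. The methods and labels also differ in the RNA reagent and library kit, and the methods name 3 biological replicates for the extraction and 2 for the test. The genome build and strand setting are not given in the sources used here. The deposited values were treated as estimated counts per gene, and are whole numbers that the authors did not scale to library size, and in each library the value 4 was more frequent than 3 or 5.

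Groups came from the labels. All genes were fitted, on the 8 libraries of each comparison, with edgeR 4.0.16 in R 4.3.3 (TMM, filterByExpr, glmQLFit, glmQLFTest, Benjamini-Hochberg over all genes tested). CPM used TMM-adjusted sums of the 12 libraries, and lengths and positions came from GENCODE release 29 on GRCh38. Ratios used a pseudocount of 0.5 and likeness one of 0.01. The members and lists were chosen with earlier results of these data known. All 9 members were described, and of each list at most 3 called genes without overlap were named by rule. Other genes of the lists were named after their values had been seen. In simulated data for hypoxia against normoxia with 20920 genes, edgeR recovered 59.1% of genes changed by a log2 of 1 and 91.2% of those changed by 2, with 7 false calls. The 200 genes changed were drawn at any level, and the 184 that passed the filter were counted. These shares were not computed at the levels of the 9 members and give no rate for them. Alternatives were a replicate block, 1 fit of all 12 libraries, each library left out, DESeq2 1.42.0, limma-voom (limma 3.58.1), RLE normalization, a minimum of 10 counts per library, calls by adjusted p-value alone, no filter and, added later, summed FABP5 pseudogenes. For the ratios a pseudocount of 5 was tried. No protein sequence was used here.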

Additional observations from a re-analysis of the deposited data

Results flagged for a closer look

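In FABP5, KO replicate 2 stood at 63.7 CPM and the other 3 KO libraries between 58.2 and 58.8 CPM. Its gap to the nearest of them was 0.89 of the whole range of the group, above Dixon's 95% critical value for 4 libraries. In all, 36 groups of 4 were examined in this way, of which 1.8 would exceed the value by chance. All KO libraries, replicate 2 included, were below the lowest WT normoxia library at 77.1 CPM.

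The effect of the KO on HILPDA differed from that of hypoxia. The direct comparison of KO with WT hypoxia gave a log2 fold change of -1.04 with an adjusted p-value of 4.7e-07 by edgeR's quasi-likelihood test (Benjamini-Hochberg adjusted), and all 4 KO libraries were lower than all 4 hypoxia libraries.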

How the results depend on the processing

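The fold changes of the 9 genes in 3 comparisons kept their direction and call under DESeq2, limma-voom, RLE normalization, at least 10 counts in every library and a replicate block. Over all alternatives HILPDA stayed between 0.9 and 0.96 in hypoxia, with an adjusted p-value of at most 0.000123, and between -1.06 and -1.01 in KO against hypoxia. With all 12 libraries in one fit the count of droplet genes called higher in the KO was 0, since PLIN4 had an adjusted p-value of 0.0583. By the adjusted p-value alone 3 droplet genes were higher and 1 lower in hypoxia, 4 and 1 in the KO, and 1 and 2 in KO against hypoxia, and over all genes 2518 and 2609, 3199 and 3307, and 3628 and 3762. With single libraries left out, the droplet genes called higher in the KO numbered 0 to 1, and the log2 fold change of PLIN4 there was 0.76 to 1.1 with an adjusted p-value of 0.00242 to 0.0589.

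Values close to 0 changed sign. Without a filter PNPLA2 was at 0 in hypoxia and -0.02 in the KO. Leaving out libraries, PNPLA2 ranged from -0.03 to 0.06 in hypoxia, from -0.04 to 0.03 in the KO and from -0.06 to 0 in KO against hypoxia, and DGAT2 from -0.07 to 0.02 in KO against hypoxia. The ratio differences kept their sign, and ranged over the libraries left out from 0.88 to 0.96 for HILPDA to PNPLA2 in hypoxia, from -1.05 to -0.97 for it in KO against hypoxia, from -0.29 to -0.19 for DGAT1 to DGAT2 in hypoxia, and from 0.11 to 0.2 in hypoxia and from 0.09 to 0.18 in KO against hypoxia for PLIN2 to PLIN3, passing the adjusted threshold only with WT hypoxia replicate 2 or 3 left out.

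No pairing by replicate number is stated, and correlations between so few libraries could not settle whether there was one. As deviations from their group means, libraries of the same number had a correlation of -0.00889 to 0.191 between hypoxia and normoxia, of -0.0725 to 0.0792 between KO and normoxia and of 0.0203 to 0.0921 between KO and hypoxia, and 2, 1 and 2 of 4 libraries correlated best with their own number. With the replicate block 1183 genes were called higher in hypoxia and 1393 in the KO, no call among the 9 genes changed, PLIN4 had an adjusted p-value of 0.0489 in the KO, and the HILPDA to PNPLA2 difference of 0.91 in hypoxia had an adjusted p of 0.188, where 4 pairs cannot give a p under 0.125 and so could not pass.

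Depth limits PLIN4 most, with 39 counts in its lowest library, and DGAT2 and HILPDA less. Whether the values were read counts or estimates from coverage could not be settled from the sources, so no counting interval was given.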
